A study of Mus musculus with 24 samples.

Results

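The cytosolic ribosomal protein genes encode the proteins that, with ribosomal RNA, build the large and small subunits of the ribosome outside mitochondria. Members were chosen by symbol: Rpl or Rps followed by a digit, Rplp0, Rplp1, Rplp2 and Rpsa, without the Rps6k kinases (10 symbols) and without pseudogene symbols that hold -ps (7 symbols). The rule gave 88 of 24421 genes. Of these, 77 encode the standard proteins, 46 of the large subunit and 31 of the small subunit, and are called standard members here. A further 10 members are copies of a standard gene (Rpl3l, Rpl7l1, Rpl10l, Rpl22l1, Rpl36al, Rpl37rt, Rpl39l, Rps4l, Rps27l and Rps27rt). Rps19bp1 encodes a protein that binds Rps19 and is a member by its symbol alone, so it was left out of all sums.

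T cells sorted as CD45+CD3+CD8+ from the pancreas or the blood of mice were profiled by RNA sequencing in 24 libraries. KC mice, a model in which pancreatic lesions form with age, gave 12 pancreas libraries (3 at 4 weeks, 2 at 9, 3 at 13, 2 at 20 and 2 at 30 weeks) and 9 blood libraries (2 at 4 weeks, 1 at 9, 3 at 13, 1 at 20 and 2 at 30 weeks). WT B6 mice gave pancreas libraries of 9 and 30 weeks (1 each) and 1 blood library of 30 weeks. The labels name neither the alleles of the KC mice nor the driver of a Cre, and nothing in them says whether libraries of a group came from separate animals, so the p-values below measure the spread between these libraries, which may be technical.

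Each ribosome holds 1 copy of nearly every ribosomal protein, and the cell makes the proteins in matched amounts. Their mRNAs are among the most abundant of a growing cell. Most carry a run of pyrimidines at the first transcribed base, the TOP motif, through which mTOR signalling sets how strongly they are translated. T cells enlarge their ribosome supply when they are activated and begin to divide.

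The start sites of several members are shown because the pyrimidine run at the start is the sequence feature that the members are known to share. Each window is in the gene's 5′ to 3′ direction and covers 30 bases before the RefSeq start and 15 bases from it on (GRCm38.p6). Capitals mark CTTTNC, with N for any base, a pyrimidine-rich stretch of the TOP kind. Rpl38, Rpl28, Rpl18 and Rpl12 of the large subunit and Rps27 of the small subunit hold it within 3 bases after the start. Rpl4 holds 2 overlapping matches before the start. Rpl5 and Rps6 hold no match to CTTTNC in the window. Rps6 still has an unbroken pyrimidine run, ctctttttc, from its start on, which CTTTNC does not match.
Rpl38, chr11:114668550-114668594, plus strand: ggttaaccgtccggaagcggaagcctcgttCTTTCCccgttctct
Rpl28, chr7:4792935-4792979, plus strand: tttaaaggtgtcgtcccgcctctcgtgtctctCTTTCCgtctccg
Rpl18, chr7:45718041-45718085, plus strand: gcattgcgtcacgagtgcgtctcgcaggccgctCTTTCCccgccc
Rpl12, chr2:32961682-32961726, plus strand: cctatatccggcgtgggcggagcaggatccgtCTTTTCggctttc
Rps27, chr3:90213634-90213678, minus strand: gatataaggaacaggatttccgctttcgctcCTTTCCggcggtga
Rpl4, chr9:64173357-64173401, plus strand: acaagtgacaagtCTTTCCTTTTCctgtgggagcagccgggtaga
Rpl5, chr5:107900498-107900542, plus strand: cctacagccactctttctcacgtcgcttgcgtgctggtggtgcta
Rps6, chr4:86857353-86857397, minus strand: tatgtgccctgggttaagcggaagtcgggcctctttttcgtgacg

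In the RefSeq promoter table, 57 of the 77 standard members were found by symbol. Within 50 bases on either side of the start, 28 of these 57 (49.1%) held CTTTNC on their own strand, against 13.7% of 27025 genes. On the other strand the shares were 8.77% of the members and 13.3% of all genes. Among genes with 1 listed start, 42.9% of 49 members and 11.9% of 22862 genes held it on their own strand. Of 11 elongation factor and other TOP mRNA genes (listed below) found there, 1 (9.09%) held it on its own strand, below the share of all genes. A match describes the letters only, and a gene without a match, such as Rps6, can hold a pyrimidine run at its start. Rpl26, Rpl34 and Rps27, whose counts were near 0 (below), were among the members with a match.

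Between 6352070 and 16716169 reads per library were counted in genes. Cd3e was at 3791 to 15654 CPM, a gene's counts scaled by the gene counts of its library, and Cd8a at 587 to 3003 CPM in all 24 libraries, while Cd4 stayed at 13.3 to 39.4 CPM. Rn45s, the precursor of ribosomal RNA, took 1.86% to 18.2% of gene counts. The libraries were also clustered into 2 sets, a number fixed beforehand, which held 12 each and are here called trace sets. They were found from 95 genes with a high level in just 1 of 14 libraries. Traces of these genes were detected in 92.4% of the libraries of the same set and 47.7% of those of the other. The same genes defined the sets, so a difference in this direction was built in. Set 1 held all WT libraries, the KC pancreas libraries of 4 and 13 weeks, and from KC blood Sample_131B8, Sample_42B8 and Sample_43B8, and set 2 held the rest. No ribosomal protein gene was among the 95, but results that cut across the sets are given within them too.

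Per length, the members covered a wide range (levels as mean CPM per kb of coding sequence over 24 libraries). Among the 73 standard members detected in every library, Rpl39 (13964), Rpl41 (13843) and Rps29 (13770 CPM per kb), which encode very short proteins, had the highest levels, followed by Rpl31 (8229) and Rps24 (7277 CPM per kb). Rps2 had the lowest (493 CPM per kb), then Rpl7 (643), Rpl8 (684) and Rpl3 (853 CPM per kb), which encode long proteins. With merged exon length in place of coding length, Rpl39, Rpl41 and Rpl23a led the large subunit, and Rps29, Rps6 and Rps21 the small. The 2 scales ranked the members similarly (Spearman's rho 0.694 across genes that share the libraries, a description).

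**Figure D1:**
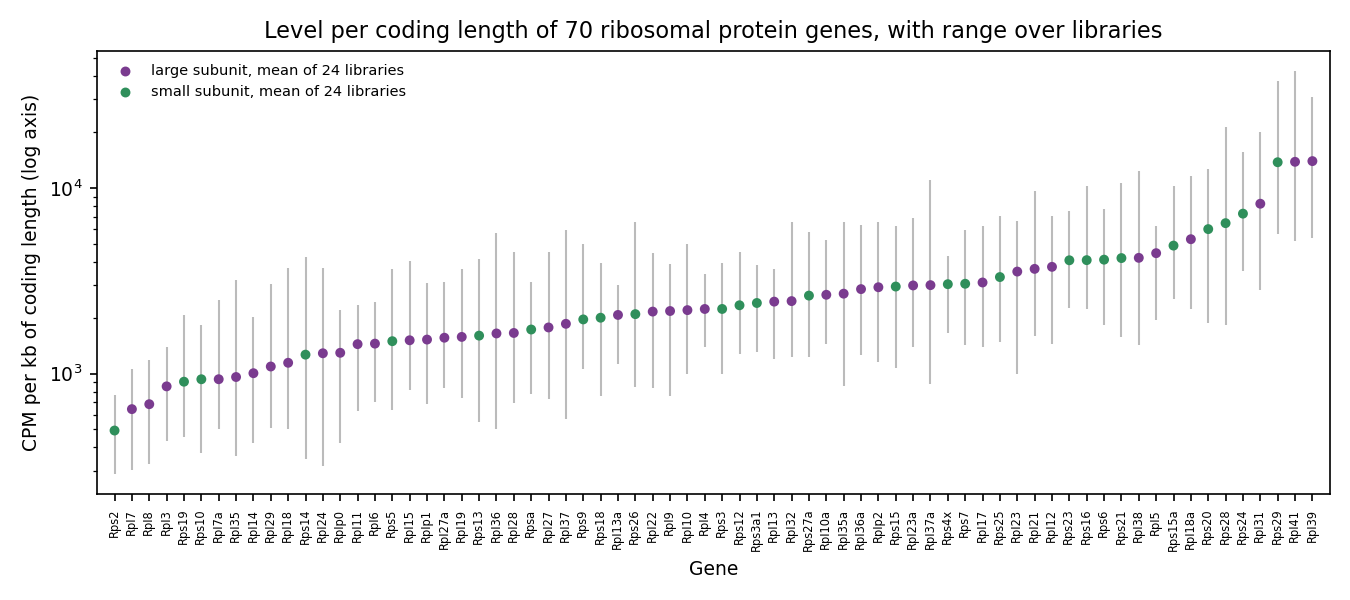
Mean level of each of 70 of the 73 standard members detected in every library, in CPM per kb of coding length on a log axis, with grey lines from the lowest to the highest of 24 libraries and genes ordered by the mean. Large and small subunit genes are mixed along the order, from Rps2 at 493 to Rpl39 at 13964 CPM per kb.

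The other 4 standard members had almost no counts. Rpl26, a large subunit protein, had 0 counts in all 24 libraries, which allows up to 0.0126 CPM over all of them (3 counts, counting error only). Rpl34 had 1 count and Rpl30 had 7 counts in total. Rps27 of the small subunit had 91 counts, of which Sample_303P8 held 7.08 CPM and Sample_43B8 held 4.12 CPM, and it was at 0 in 17 libraries. Every ribosome contains these proteins. The authors tallied reads that aligned to more than 1 place apart from genes (15.8% to 22.8% of tallied reads), and ribosomal protein genes have many near-identical pseudogenes, so the levels of members with such copies are uncertain; the part of this in the values near 0 was not tested.

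The standard members together took 5.24% to 17.4% of gene counts, with a median of 8.80%. In bulk libraries, fewer cells with a transcript and less of it per cell cannot be told apart. In KC pancreas the shares were 6.09%, 8.41% and 5.24% at 4 weeks, 8.28% and 9.52% at 9 weeks, 11.6%, 17.4% and 10.6% at 13 weeks, 11.1% and 9.41% at 20 weeks, and 7.65% and 8.95% at 30 weeks. The 3 libraries of 13 weeks all lay above the 3 of 4 weeks. In KC blood they were 14.4% and 8.98% at 4 weeks, 7.32% at 9 weeks, 17.1%, 10.1% and 9.65% at 13 weeks, 8.65% at 20 weeks, and 5.42% and 7.78% at 30 weeks. Blood was thus above pancreas in every library at 4 weeks, and the tissues overlapped at 13 and 30 weeks. Over all ages, the share was 9.52% ± 3.12 (SD, n = 12) in KC pancreas and 9.93% ± 3.63 (SD, n = 9) in KC blood, a difference far inside the spread. The WT libraries lay in the same range, at 7.63% (95% Wilson interval 7.62% to 7.65%) in pancreas at 9 weeks, 8.36% (8.34% to 8.37%) in pancreas at 30 weeks and 8.58% (8.56% to 8.59%) in blood at 30 weeks, with intervals that cover counting error only.

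**Figure D2:**
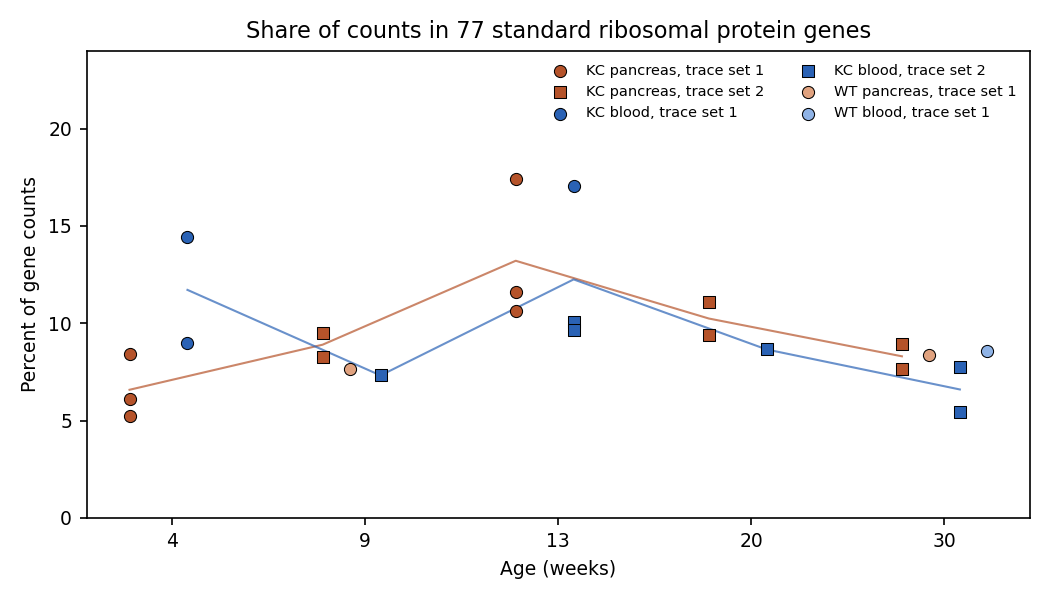
Percent of gene counts in the 77 standard members (vertical axis) by age in weeks (horizontal axis, ages evenly spaced and not to scale); each point is 1 library, circles and squares mark the 2 trace sets, and lines join the means of KC pancreas and of KC blood. KC pancreas is lowest at 4 weeks (5.24% to 8.41%) and highest at 13 weeks (10.6% to 17.4%), and at 4 weeks both blood libraries lie above the pancreas libraries.

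The large subunit took 2.92% to 9.53% of gene counts and the small subunit 2.32% to 7.89%. Their ratio stayed within 1.09 to 1.37 in all 24 libraries, while the total varied from 5.24% to 17.4%. The ratio was 1.26 ± 0.0737 (SD, n = 12) in KC pancreas and 1.28 ± 0.0730 (SD, n = 9) in KC blood, 1.25 in both WT pancreas libraries and 1.26 in WT blood. By age in KC pancreas it was 1.26 to 1.36 at 4 weeks and 1.09 to 1.24 at 13 weeks, so these groups did not overlap; in KC blood it was 1.29 and 1.37 at 4 weeks and 1.19 to 1.31 at 13 weeks, and overlapped. The lowest ratio of all, 1.09, belonged to Sample_131P8, where Rps24 of the small subunit had the most counts of any member.

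The members moved together from library to library. Over 24 libraries, the median correlation of log2 CPM between pairs of the 73 members was 0.528 (range -0.578 to 0.932). For 386 other genes it was 0.0342, as a description of genes that share the same libraries. These 386 had a mean CPM at or above that of the lowest of the 73 members, with no upper limit. Rps28 (median r 0.710 with the others) and Rpl36a (0.681) followed the rest most closely. Rpl7, a large subunit protein, did not (-0.0734), and neither did Rplp0 (0.122), the base of the stalk on which elongation factors act, or Rpsa (0.219), which is also known as the laminin receptor. In KC pancreas Rpl7 was at 683, 539 and 380.0 CPM at 4 weeks and at 379.9, 323 and 721 CPM at 13 weeks, so the age groups overlapped fully. Rpsa was at 1409, 1355 and 1205 CPM at 4 weeks and at 1508, 2490.3 and 2038 CPM at 13 weeks.

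How much a member varied went with its length. The coefficient of variation of CPM over 24 libraries was lowest for Rps2 (0.240), Rpl5 (0.253), Rps4x (0.255) and Rpl13a (0.258), and highest for Rpl37a (0.818), Rps14 (0.803), Rps28 (0.793) and Rpl36 (0.792). Across the 73 members it had a Spearman correlation of -0.656 with coding length (genes that share libraries, so no p is given). Its median was 0.486 in members with a coding length up to 468 bases and 0.391 in longer ones, and 0.473 in the same 386 other genes. Rps28, which encodes one of the shortest small subunit proteins (chr17:33819027-33824562, minus strand, mm10), was at 379 to 604 CPM in KC pancreas at 4 weeks and at 1139 to 4420.2 CPM at 13 weeks.

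**Figure D3:**
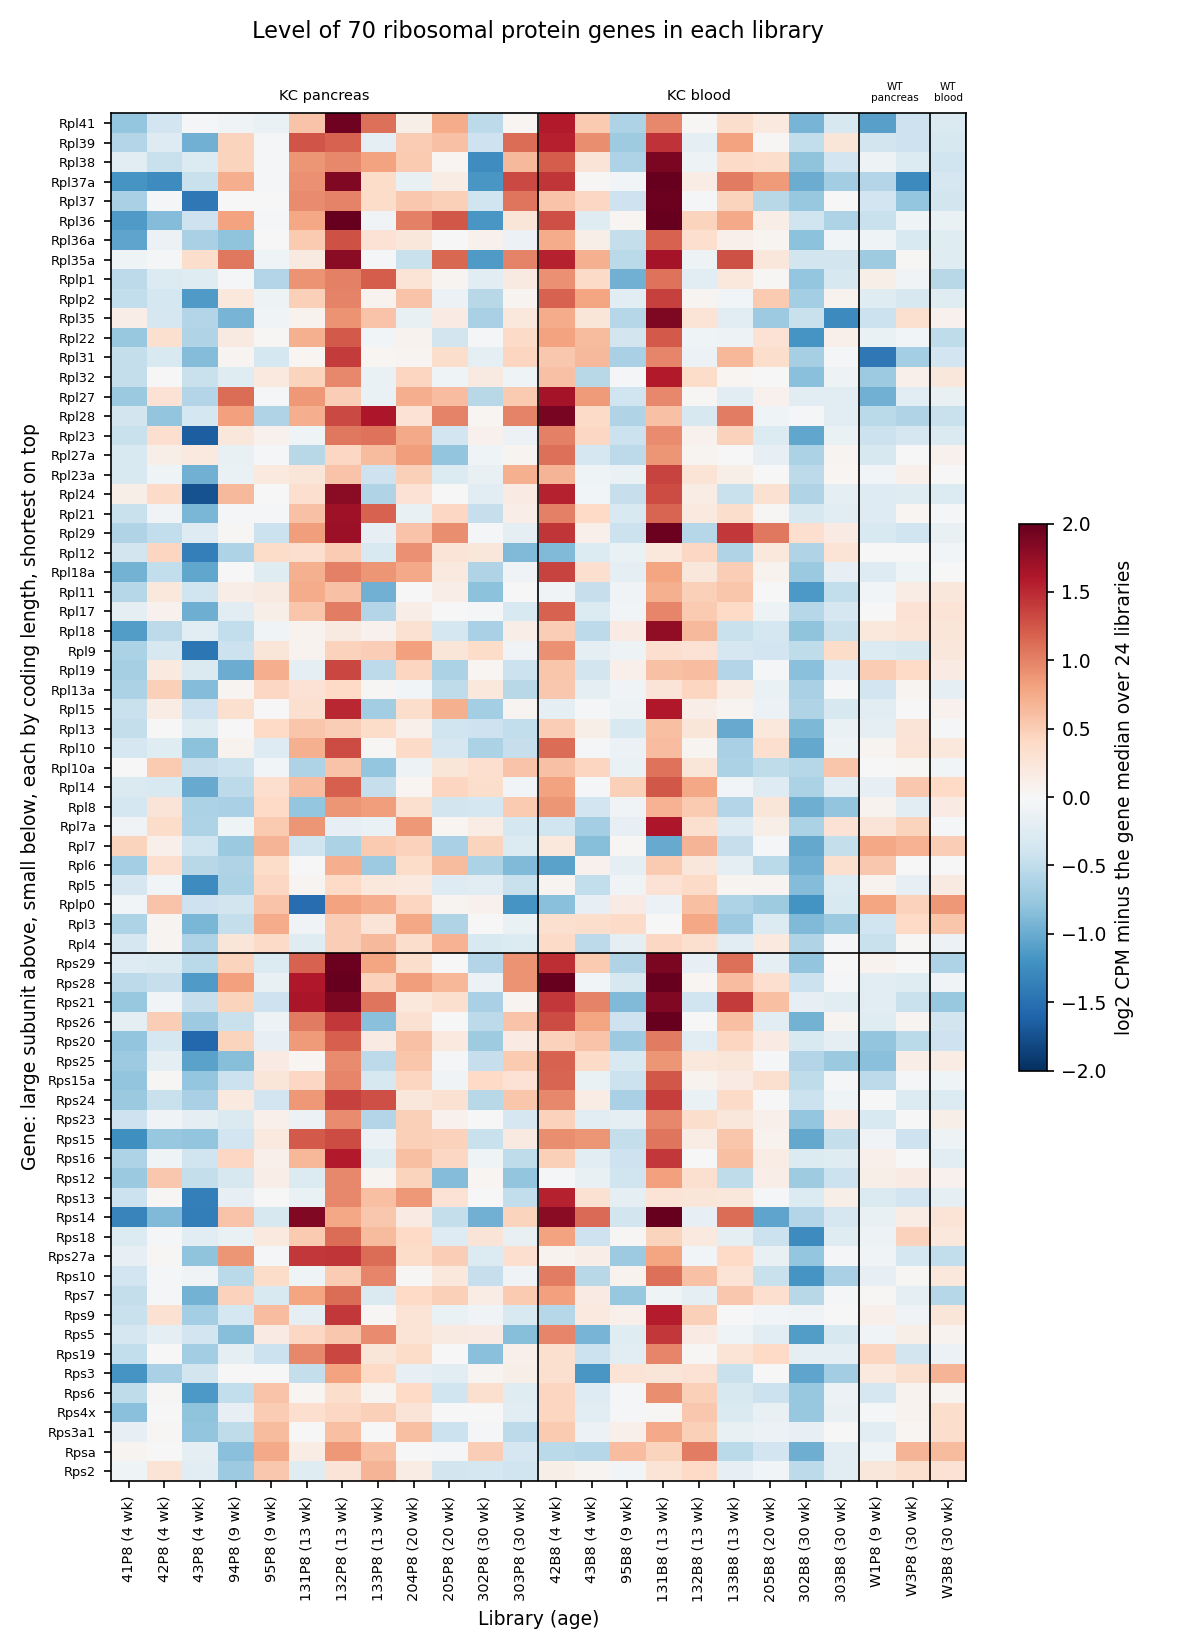
Level of 70 of the 73 standard members detected in every library, as log2 CPM minus the gene's median over 24 libraries (colour, cut at -2 and 2); columns are libraries by group and age, and genes are split by subunit and ordered by coding length. The columns of Sample_132P8 and Sample_131B8, with 17.4% and 17.1% of counts in standard members, are mostly red, most strongly for short genes, with Rpl7 blue in both.

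The ratio of counts in the 40 short standard members to the 37 long ones therefore differed between libraries more than the subunit ratio did, from 0.602 to 1.19. In KC pancreas it was 0.685 to 0.830 at 4 weeks, 0.871 to 1.16 at 13 weeks and 0.695 and 1.18 at 30 weeks. In KC blood it was 1.14 and 1.17 at 4 weeks, 0.618 to 1.19 at 13 weeks and 0.784 and 0.817 at 30 weeks. The 3 WT libraries were at 0.612 to 0.643, near the lowest values of KC libraries, and they had the largest shares of Rn45s (16.7% to 18.2%). Among KC libraries, Sample_303P8, Sample_42B8, Sample_43B8, Sample_131B8 and Sample_133B8 had ratios of 1.14 to 1.19 with Rn45s at 1.86% to 3.34%, and Sample_132P8 had 1.16 with 6.07%, but Sample_302B8 had 0.817 with Rn45s at 1.94%. The split by length was chosen after the values were seen, and the part of the Rn45s share in it was not tested.

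**Figure D4:**
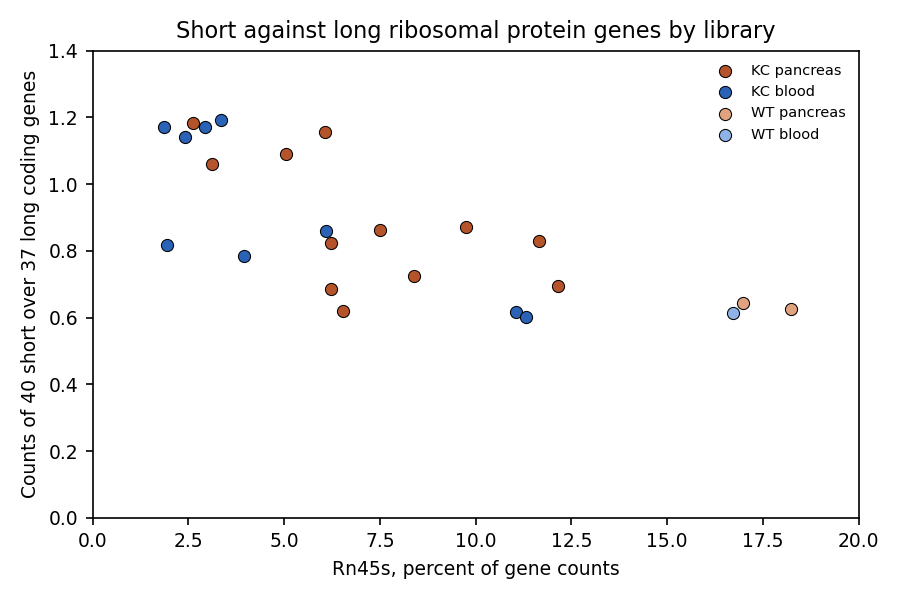
Counts in the 40 short standard members (coding length up to 468 bases) divided by counts in the 37 long ones (vertical axis), against the share of gene counts in Rn45s (horizontal axis, percent); each point is 1 library. The 3 WT libraries sit at the right with ratios of 0.612 to 0.643, and KC libraries reach 1.19 at low Rn45s.

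A pair of libraries stood above the others, Sample_132P8 (KC pancreas, 13 weeks, 17.4%) and Sample_131B8 (KC blood, 13 weeks, 17.1%); the next share was 14.4%. Both libraries were picked by the summed share of these same members, so a raised level of most members there was built in. In each of them 70 of 73 members lay above their median of the other 22 libraries, with a median fold of 2.05 in both. Short members were at a median of 2.34-fold and 2.41-fold, and long members at 1.53-fold and 1.65-fold. The highest were Rps28 in Sample_132P8 (5.52-fold) and Rpl37a in Sample_131B8 (5.34-fold), and Rpl7 was the lowest in both (0.614-fold and 0.475-fold). T cell genes (15 genes such as Cd3e and Lck) took 2.26% of the counts of Sample_132P8, the largest share of any library, and 1.48% in Sample_131B8, where the median over libraries was 1.41%. Within this list the genes differed: in Sample_132P8 Cd3e was at 15654 CPM, the highest of any library, and Cd8a at 587 CPM, the lowest.

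Pancreas and blood of KC mice (21 libraries) were compared in a fit that treats age as a factor, which asks whether CD8 T cells in the pancreas differ from circulating ones. Rplp0 had the largest fitted value. Its CPM in KC pancreas had a lowest value of 400.0, a median of 1209.8 and a highest of 2026, and in KC blood 507, 940.4 and 1759.8, so the tissues overlapped. Its log2 difference was 0.67 ± 0.36 (SE), with an edgeR adjusted p of 0.539. Rps27a, which encodes ubiquitin fused to a small subunit protein, was at 575, 1288 and 2709.7 CPM in pancreas and 589, 997 and 1749 CPM in blood, a log2 difference of 0.66 ± 0.38. Rpl7 (0.53) and Rpsa (0.51) followed. The smallest values were those of Rps14 (-0.38), Rpl29 (-0.36), Rplp2 of the stalk (-0.27) and Rpl18 (-0.24).

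With genes called at an edgeR adjusted p under 0.05 over all tested genes, 0 of 79 tested members were called between the tissues, where 0.0904% of all 11059 genes were. At an unadjusted p under 0.05 it was also 0 of 79, against 9.85% of all genes, and DESeq2 called 0 of 81. Of 73 standard members 56 had a fitted value above 0, against 45.4% of all genes. The median was 0.13 over these members and -0.12 over all genes, and it was near the same in the large (0.12) and small (0.14) subunit. The fit of all libraries had 54.6% of all genes below 0. The trace sets cut across this comparison. Among KC libraries, set 1 holds only 4 and 13 weeks. Set 2 holds 9, 20 and 30 weeks and the blood libraries Sample_132B8 and Sample_133B8 of 13 weeks. Differences between the sets can thus only in part be told apart from differences between ages. In set 1 alone the median was -1.22 over standard members (72 of 73 below 0) and 0.11 over all genes. In set 2 alone it was 0.81 (73 of 73 above 0) against -0.05 over all genes. With the set as a term it was -0.15 (54 of 74 below 0) against 0.01. No member was called in any of these fits. At an unadjusted p under 0.05 there were 44 of 79 members in set 1 alone (13.6% of all genes) and 42 of 79 in set 2 alone (7.62%), in opposite directions, and 0 of 80 with the set as a term (8.53%). The median was also -0.02 without Sample_132P8 and 0.42 without Sample_131B8.

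The order of the tissues was not the same at each age. At 4 weeks, all 3 KC pancreas libraries lay below both KC blood libraries in 37 of 73 members (25 large and 12 small subunit), where this held for 6.81% of all genes. Examples were Rpl41 (890.3, 1168 and 1505 CPM in pancreas, 4566 and 2209 CPM in blood) and Rps14 (164, 224 and 157 CPM against 1438 and 900.5 CPM). Rpsa alone lay higher in pancreas (1409, 1355 and 1205 against 935 and 912 CPM), a pattern shown by 21.8% of all genes. At 13 weeks only Rps18 and Rps27a lay higher in all pancreas libraries (1.52% of all genes) and none lower (9.75%). Rps27a was then at 2692, 2709.7 and 2192 CPM in pancreas and 1749, 971 and 1330.4 CPM in blood.

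At 30 weeks, both KC pancreas libraries lay above both blood libraries in 17 of 73 members (9 large and 8 small subunit), against 8.97% of all genes, and below in Rpl29 and Rps9 (28.1%). Rps3, a small subunit protein at the mRNA entry channel, was at 1716 and 1799 CPM in pancreas and 795 and 1018 CPM in blood. Rps25 was at 856 and 1684 against 783 and 698 CPM. Of the 73 members, 8 were lower in pancreas at 4 weeks and higher at 30 weeks, against 0.642% of all genes. The tissues overlapped at all of 4, 13 and 30 weeks in 25 of the 73, against 40.2% of all genes. At 4 weeks all 5 libraries belong to set 1 and at 30 weeks all 4 belong to set 2, so these differences lie within a set, while at 13 weeks the pancreas libraries are of set 1 and 2 of the 3 blood libraries of set 2.

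The shift between 4 and 13 weeks in KC pancreas also lay within set 1. All 3 libraries of 13 weeks exceeded all 3 of 4 weeks in 33 of 73 members (19 large and 14 small subunit), where 2.17% of 9555 genes did. Rps28 was at 575, 604 and 379 CPM at 4 weeks and at 2512, 4420.2 and 1139 CPM at 13 weeks. Rps27a was at 899, 1019.6 and 575 CPM and at 2692, 2709.7 and 2192 CPM. Rpl5, which carries 5S rRNA into the large subunit, was at 3266, 4009.8 and 1724 CPM and at 4283, 5458 and 4804 CPM, with no overlap but a narrow gap. Rps6, the phosphorylation target of the S6 kinases, was at 2145, 3092 and 1364 CPM and at 3116, 3884 and 3153 CPM. Rplp0 did not follow (1117, 1719 and 869 against 400.0, 2026 and 1909 CPM). In the fit of these 6 libraries alone, with TMM scaling, the median slope of 73 standard members was 2.10 log2 per 10 weeks, all 73 above 0 (lowest 0.87). The median of all genes was 0.17. CPM carry no TMM scaling, and by CPM Rpl7 overlapped fully (683, 539 and 380.0 against 379.9, 323 and 721 CPM). The part of the scaling in these slopes was not tested, and no other scaling was run for this fit. There, 68 of 79 members had an unadjusted p under 0.05 (16.3% of all genes) and none was called (lowest edgeR adjusted p 0.0562). Beside it, T cell genes took 1.30% to 1.54% of counts at 4 weeks and 1.74% to 2.26% at 13 weeks. Cd8a, which is among them, was at 1247, 1608.5 and 1238 CPM at 4 weeks and at 2064, 587 and 720.0 CPM at 13 weeks. Genes of pancreatic acinar cells took 0.168% to 0.996% at 4 weeks and 0.00974% to 0.0492% at 13 weeks. The part of these genes in the result was not tested.

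Over all 5 ages, KC pancreas had no called trend. The slope was fitted as log2 per 10 weeks in 12 libraries, and edgeR called 0 of 79 members, against 0.293% of 9555 genes. At an unadjusted p under 0.05 it was 0 of 79 (8.95% of all genes), and DESeq2 called 0 of 69. The largest slopes were those of Rpl9 (0.43 ± 0.35), Rpl37 (0.42), Rpl39 (0.39) and Rps25 (0.34), and the smallest those of Rpl13 (-0.11), Rplp0 (-0.11), Rps2 (-0.10) and Rps21 (-0.09). Rpl9 was at 766, 947 and 436 CPM at 4 weeks, 2105 and 1408 CPM at 20 weeks, and 1530.3 and 1128 CPM at 30 weeks. Of 73 standard members 64 had a slope above 0 (47.5% of all genes), with a median of 0.11 against -0.04 for all genes. With the trace set as a term the median was 0.54, against 0.02 for all genes. In set 2 alone, which holds 9, 20 and 30 weeks, it was 0.06, as it was for all genes. Without Sample_41P8 of 4 weeks the median was -0.03, and without Sample_302P8 of 30 weeks it was 0.39. With RLE scaling 52 of 73 slopes were above 0.

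In KC blood all 73 standard members had a slope below 0, as did 56.1% of all genes. The median slope was -0.74 log2 per 10 weeks, against -0.12 for all genes, -0.79 in the large and -0.66 in the small subunit. No member was called by edgeR (0 of 79, as for 0.0% of 9933 genes) or by DESeq2 (0 of 56), and 17 of 79 had an unadjusted p under 0.05, against 8.76% of all genes. That count rested on single libraries: it was 0 without Sample_302B8 or without Sample_42B8 and 51 without Sample_131B8, and it was 8 with RLE scaling and 0 with the trace set as a term. Rps14, a small subunit protein whose loss causes a form of anaemia, had the smallest slope, -1.27 ± 0.53 (adjusted p 0.514). It was at 1438 and 900.5 CPM at 4 weeks, 317 CPM at 9 weeks, 1934, 366 and 894 CPM at 13 weeks, 196 CPM at 20 weeks, and 273 and 325 CPM at 30 weeks. Both libraries of 4 weeks lay above both of 30 weeks, and those of 13 weeks reached from just above the latter to the highest value of all. Rpl37a (-1.20), Rpl35 (-1.07) and Rps28 (-1.05) came next, and the slopes nearest 0 were those of Rpl12 (-0.20), Rpl6 (-0.36) and Rpl7a (-0.42). Rpl41 had the lowest adjusted p (0.495, slope -1.01). RLE scaling lowered the median of all genes to -0.24 and that of the members to -0.96.

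The blood slopes moved with the trace sets, since the 3 KC blood libraries of set 1 are of 4, 4 and 13 weeks. With the set as a term the median slope was 0.01 over standard members (39 of 73 above 0) and -0.01 over all genes. Without the term 43.9% of all genes were above 0. In set 2 alone the median of the members was -0.22 (69 of 73 below 0), against -0.0084 over all genes. In set 1 alone it was 1.13 (68 of 74 above 0), against -1.06 over all genes. Age and set can only in part be told apart here. T cell genes took 1.31% to 1.88% of counts in the blood libraries of set 1 and 1.13% to 1.42% in those of set 2; their part was not tested.

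The difference of the slopes, pancreas minus blood, was above 0 in 73 of 73 standard members, with a median of 0.90 against 0.07 for all genes and 52.6% of all genes above 0. The largest were Rpl37a (1.47 ± 0.79), Rps14 (1.42 ± 0.70), Rps28 (1.31 ± 0.77) and Rps25 (1.30 ± 0.49, edgeR adjusted p 0.384), and the smallest Rpl6 (0.36), Rpl12 (0.41), Rplp0 (0.42) and Rps2 (0.45). None of 79 members was called by edgeR (0.0543% of 11059 genes were), and 14 of 79 had an unadjusted p under 0.05 (8.33% of all genes). This count was 2 without Sample_42B8 and 40 without Sample_132P8, 1 with RLE scaling and 36 with the trace set as a term. The median stayed at 0.89 with the trace set as a term, against 0.04 for all genes, again with 73 of 73 above 0. DESeq2 called 1 member, Rps27, at a log2 value of 10.91 per 10 weeks (adjusted p 1.8114e-05), and this rested on the 2 libraries named above in which Rps27 had more than 1 CPM.

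**Figure D5:**
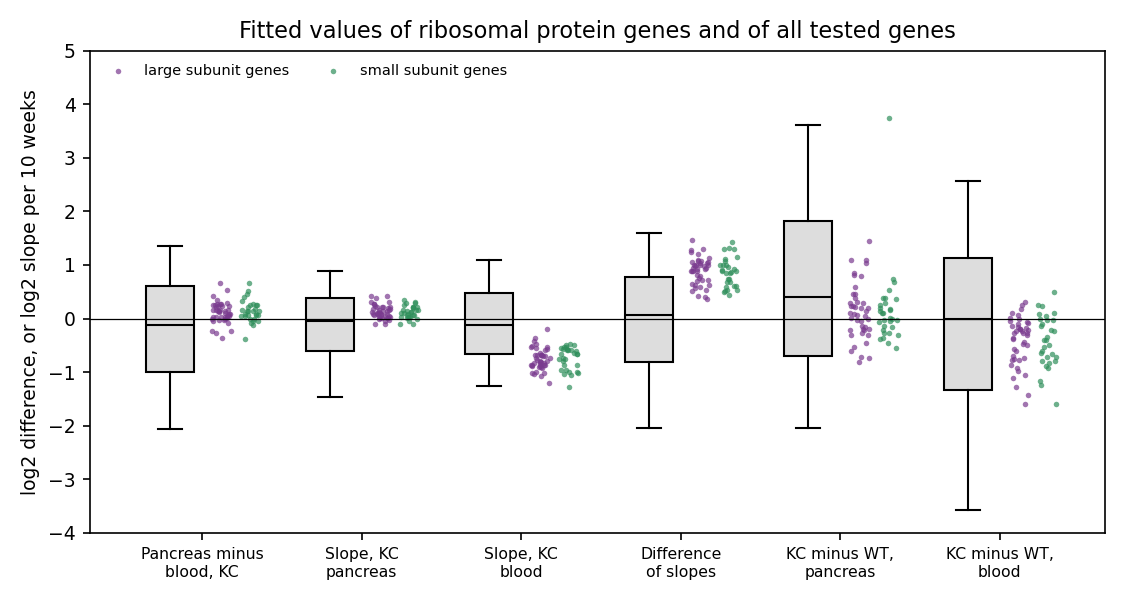
Fitted log2 differences (pancreas minus blood, KC minus WT) and slopes in log2 per 10 weeks: grey boxes show all tested genes (median, quartiles, whiskers at the 10th and 90th percentile), points show standard members by subunit. Slopes in KC blood are all below 0 (median -0.74) and the differences of slopes all above 0 (median 0.90); the single high point in KC minus WT pancreas is Rps27, at 3.75.

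KC and WT pancreas were compared at 9 and 30 weeks. Rpl31, a large subunit protein near the exit tunnel, was at 3063 and 2321 CPM in KC and 1092 CPM in WT at 9 weeks, and at 2570.4 and 3984 CPM in KC and 1843 CPM in WT at 30 weeks, higher in all KC libraries. Its log2 difference was 1.08 ± 0.47, with an edgeR adjusted p of 0.784. Rpl37a (1.44 ± 0.72, adjusted p 0.861) was at 969 and 575 against 392 CPM, and at 262 and 1466 against 242 CPM. Rplp0 was at 897 and 1724 CPM in KC and 2003 CPM in WT at 9 weeks, and at 1224 and 509.8 against 1585 CPM at 30 weeks, lower in all KC libraries (log2 difference -0.81 ± 0.57). Rpl6 (-0.75), Rpl7 (-0.72) and Rpl19 (-0.61) followed Rplp0, and Rpl28 (1.09) followed Rpl37a.

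None of 81 members was called by edgeR between KC and WT pancreas (0.226% of 12374 genes were) and none of 83 by DESeq2. Rpl31 and Rpl37a alone had an unadjusted p under 0.05 (5.79% of all genes). The standard members split by length: 30 of 37 short ones were above 0 and 12 of 37 long ones (58.9% of all genes), with medians of 0.30 and -0.19, while the median over all genes was 0.41. Over both it was 0.07, and -0.17 without Sample_94P8. Rn45s was called lower in KC (-1.64 ± 0.149, edgeR adjusted p 3.484e-24), as were 17 acinar genes. The KC libraries compared are all of set 2 and the WT libraries of set 1, so genotype and set cannot be told apart.

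In blood at 30 weeks 2 KC libraries were compared with 1 WT library, assumed to vary like the other groups. Rps3 was at 795 and 1018 CPM in KC and 2638 CPM in WT (log2 difference -1.60 ± 1.08), and Rplp0 at 507 and 940.4 against 2099 CPM (-1.59 ± 1.15). Rpl3 (-1.44) and Rpl7 (-1.27) came next, and the largest values were those of Rps21 (0.49), Rpl29 (0.32), Rpl28 (0.25) and Rps7 (0.25). Of 74 standard members 61 were below 0, against 47.7% of all genes, with a median of -0.35 where all genes had 0.00. None of 80 members was called by edgeR (0.0% of 12496 genes) and none of 81 by DESeq2, and none had an unadjusted p under 0.05 (2.83% of all genes). With the trace set as a term the median became 1.78, with 70 of 74 above 0, and that of all genes -1.73. At 30 weeks both KC libraries are of set 2 and the WT library of set 1. The set term therefore rests on the KC blood libraries of 13 weeks, of which Sample_131B8 alone is of set 1. The direction of the median turned with this term, and genotype and set cannot be told apart here. RLE scaling raised the median of all genes to 0.18 and left 47 of 74 members below 0 (median -0.15), and the median was -0.72 without Sample_303B8 and -0.10 without Sample_302B8.

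The 2 WT libraries of 30 weeks gave a within-genotype view with no replicate. Pancreas exceeded blood in 37 of 73 standard members and lay below it in 36, with a median log2 ratio of 0.01. No standard member differed by more than 1 on the log2 scale, where 53.8% of 10537 genes did.

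Among the copies, Rpl36al and Rpl22l1 were well detected. Rpl36al, a copy of Rpl36a, had a mean of 662 CPM, and was at 419, 416 and 90.4 CPM in KC pancreas at 4 weeks and at 894 and 1276 CPM at 20 weeks. Its slope was 0.57 ± 0.40 in pancreas and -0.84 ± 0.41 in blood, a difference of 1.41 ± 0.55 (edgeR adjusted p 0.399). Rpl22l1, a paralogue of Rpl22 with roles in T cell development, had a mean of 186 CPM and reached 484 CPM in Sample_132P8 and 410.2 and 352 CPM in the blood libraries of 4 weeks. Rps27l, known as a p53 target, ranged from 0.526 to 117 CPM with no order by age or tissue. Rpl37rt (mean 16.6 CPM) and Rpl7l1 (15.9 CPM) were low, Rpl39l had 60 counts in all, and Rpl3l, Rpl10l, Rps4l and Rps27rt had 0 counts in every library. Rpl3l is known from muscle, and Rpl10l from the testis.

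Rps19bp1, the Rps19 binder, was unlike any standard member. It was at 309.5 CPM in Sample_131B8, 210.4 CPM in Sample_133P8, 78.8 CPM in Sample_42P8 and 28.8 CPM in Sample_43P8, and below 10 CPM in the other libraries, with 5 libraries at 0.

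Genes that work with the ribosome were described in lists. The elongation factors and other TOP mRNA genes (18 genes) took 2.07% to 5.21% of gene counts, led by Eef1a1, which brings aminoacyl-tRNA to the ribosome (5986 to 24408 CPM). In KC blood all 18 had a slope below 0 (56.1% of all genes), with a median of -0.49, as the standard members did. In the difference of slopes 14 of 18 were above 0 (52.6% of all genes). Initiation factors had 24 of 29 slopes below 0 in blood (median -0.46), and genes of ribosome biogenesis and RNA polymerase I 34 of 48 (median -0.46). The regulators of ribosome synthesis by mTOR and Myc were evenly split, 9 of 17 below 0. Mitochondrial ribosomal proteins, which build a separate ribosome, had 49 of 73 below 0 (median -0.65). All these blood slopes are without the trace set as a term, with which the median of the standard members was 0.0054. No gene of these 5 lists was called by edgeR in any of the 6 comparisons.

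Lists of other cells were checked beside these values. Between tissues edgeR called the platelet gene Ppbp (log2 difference -5.14) and the erythroid gene Alas2 (-4.12), both lower in KC pancreas. In the KC pancreas trend it called 10 acinar genes and the fibroblast genes Col3a1 and Bgn, all with negative slopes. Acinar genes took 0.168% to 0.996% of counts in KC pancreas at 4 weeks, and at most 0.0492% in every later KC pancreas library.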

How the data were processed

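The Rneasy Plus Micro kit was used for the RNA, per the labels' protocols. The deposited files hold read counts per gene symbol as the authors counted them, with no normalisation. TopHat, SAMtools, HTSeq, DESeq and the mm10 build are named in the submitters' processing notes, without versions, and strand use is not given in the sources used here, so overlapping and antisense genes cannot be told apart. Reads tallied to no gene were left out, so that 11.7% to 32.5% of a library's reads were used.

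CPM and shares are per gene counts. Tests used R 4.3.3 and edgeR 4.0.16 (TMM scaling, filterByExpr at a count of 10 or more, robust quasi-likelihood, Benjamini-Hochberg over all tested genes, two-sided). They were run on simulated data too. The simulated counts varied less between libraries than the real ones and held larger changes than most members had. That run therefore cannot tell how well the tests find changes of the members' size. The SE of a log2 value is its size over the square root of F. Alternatives were RLE scaling, no filter, DESeq2 1.42.0, no Rn45s and Lars2, the trace sets, a block and leaving out libraries. Trace genes reached 100 CPM in a single library, and no other exceeded 5% of that level.

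Members, lists and tests were chosen with earlier results of these data known. Named members were the extremes of each comparison and of level per length, those near 0, the copies and a panel of known roles; others were named after their values were seen. Of the members counted, 3 are not reported by name here. Rpl37rt was moved to the copies after the data were seen. Gene positions and lengths came from GENCODE vM21 on mm10, which gave a single entry for 86 of 88 members.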

Additional observations from a re-analysis of the deposited data

Results flagged for a closer look

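Of the 81 genes with counts in KC blood 78, and 3 shares and ratios, were checked in the 9 KC blood libraries for a single library far from the others (its gap to the next value over the whole range, above Dixon's 95% critical value), which chance alone meets in about 1 of 20 groups. Of 81 values checked, 20 met it, and since the genes share these libraries the checks are not independent. Genes outside the members were not checked in this way. How often they would meet it is not known, so the count is no trait of the members.

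In 14 of them the library was Sample_131B8. Among large subunit genes, Rpl15 was at 2461 CPM there, where the other libraries had a median of 750.0 CPM, Rpl18 at 2102 CPM (464), Rpl23a at 3219 CPM (1283), Rpl32 at 2664 CPM (875), Rpl35 at 1173 CPM (257), Rpl36 at 1549 CPM (378), Rpl37 at 1734 CPM (441), Rpl37a at 3047 CPM (625) and Rpl7a at 1989 CPM (562). Among small subunit genes, Rps16 was at 4014 CPM (1395), Rps19 at 1017 CPM (491) and Rps9 at 2920.0 CPM (987). The copy Rpl37rt reached 59.9 CPM there, against 13.4, and the binder Rps19bp1 309.5 CPM, against 0.963.

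In 4 the library was Sample_42B8, with Rpl27 at 1845 CPM (549), Rpl28 at 1854 CPM (474), Rpl9 at 2246 CPM (1080.0) and Rps13 at 1868 CPM (725). Rps27 was at 4.12 CPM in Sample_43B8, where the median of the others was 0, and Rps27l at 60.0 CPM in Sample_133B8, against 13.4. Sample_131B8 and Sample_42B8 also had the largest shares of counts in standard members among the blood libraries.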

How the results depend on the processing

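Of 125 other values from the alternatives, 116 kept the number of called members or stayed within the spread between libraries, and 9 moved. The spread was 0.357 log2 for medians and the group's SD for shares and ratios. Numbers of called members that stayed at 0 are among the 116. Direction was not part of this rule. The median between tissues turned from 0.13 to -0.15 with the set as a term and is among the 116. By trace set, the median log2 value of standard members between KC pancreas and KC blood became -1.22 in set 1 and 0.81 in set 2. The median slope in KC pancreas became 0.54 with the set as a term and 2.10 in set 1, and in KC blood 0.0054 with the set as a term, 1.13 in set 1 and -0.22 in set 2. KC against WT in blood became 1.78 with the set as a term, which there rests on the KC blood libraries of 13 weeks. DESeq2 called 1 member higher in the difference of slopes (Rps27), as did edgeR without Sample_302P8 (1 member, Rps27, log2 6.49, adjusted p 0.0447). The causes were not tested.

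Leaving out each library in turn gave medians of -0.02 to 0.42 between tissues, -0.03 to 0.39 for the slope in KC pancreas, -0.88 to -0.58 for that in KC blood, 0.77 to 1.21 for the difference of slopes (0 to 1 members called), -0.17 to 0.19 for KC against WT in pancreas and -0.72 to -0.10 in blood. The mean share of standard members stayed at 8.80% to 9.91% in KC pancreas and 9.04% to 10.5% in KC blood.

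DESeq2 called 176 genes higher and 321 lower between tissues, where edgeR called 8 and 2, and similarly more in the other comparisons. Title numbers shared by pancreas and blood libraries of an age were fitted as a replicate block: the median was 0.28, 71 of 74 members above 0 and 0 members called. Deviations of the 7 pairs that can be checked correlated at -0.0590 to 0.00926 and 2 pairs correlated best with their own number. Both are of 30 weeks, where 2 libraries per tissue force the same value, 0.00926, on each pair. With so few libraries per age this check cannot decide on pairing. The libraries were not treated as pairs, and the labels do not tell whether those of 1 number share a mouse. The set as a term in KC against WT pancreas, and KC against WT blood without the WT library, could not be fitted. Groups of 1 to 3 libraries per age limit every comparison by age.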
